A study of Homo sapiens with 12 samples.

Results

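The MYC and MAX network is the set of transcription factors that share the dimerisation partner MAX. Its transcripts were described here across LNCaP cells in which USP22 was raised or lowered. The members were the rows of the count table whose Ensembl gene ID maps to 10 symbols: MYC (ENSG00000136997), MYCN (ENSG00000134323), MYCL (ENSG00000116990), MAX (ENSG00000125952), MXD1 (ENSG00000059728), MXD3 (ENSG00000213347), MXD4 (ENSG00000123933), MXI1 (ENSG00000119950), MNT (ENSG00000070444) and MGA (ENSG00000174197). All 10 were found among the 63677 gene IDs of the table, and 9 passed the filter on low counts, which MYCN did not.

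MYC, MYCN and MYCL pair with MAX, bind the DNA sequence called the E-box and activate genes of growth, ribosome production and metabolism. The MXD proteins (MXD1, MXD3, MXD4 and MXI1) and MNT compete for the same partner, bind the same sequence and repress through the SIN3 and histone deacetylase corepressor, while MGA joins MAX to a variant Polycomb complex, PRC1.6. MYC is a frequent oncogene of prostate cancer, and its gene lies in a chromosome arm that prostate tumours often gain.

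LNCaP is a human prostate cancer line that grows in response to androgen, and USP22 is the ubiquitin protease of the SAGA coactivator, a complex known to be recruited by MYC. RNA sequencing gave 12 libraries in 4 groups of 3: a vector control (pLPLUC), USP22 overexpression, an shRNA control and a depletion by a single shRNA against USP22. All cells grew in hormone proficient medium, and both shRNA groups, but neither vector group, were given doxycycline (1 ug/mL, renewed every 48 hours) for 5 days. The sources used here do not give the promoter behind the overexpression, whether each line is 1 clone, or whether replicates were separate cultures, so p-values measure the spread between these libraries, which may be technical. Libraries held 77607469 to 103690001 counted reads. USP22 stood at 512.5 ± 45.9 CPM in the vector control, 1466 ± 52.2 CPM after overexpression, 477.6 ± 3.65 CPM in the shRNA control and 257.6 ± 7.38 CPM after depletion (SD, n = 3 each), in the direction of the labels. CPM are counts relative to library size, with sizes scaled between libraries by TMM. Summed levels of 10 luminal prostate markers were 5098 to 5443 CPM in the vector control, with 4792 to 4947 after overexpression. They were 6480 to 6683 in the shRNA control, and after depletion 4655 to 5172. On depletion edgeR called 2 of these markers higher and 6 lower, where 9.4% of all genes were higher and 10.4% lower. The falls included KLK3, which encodes PSA (0.229 of control), KLK2 (0.611), KRT8 (0.677) and TMPRSS2 (0.73). After depletion KLK2 and TMPRSS2 still had higher means than the vector control (344 against 315.7 CPM, and 575.4 against 281.6 CPM). KLK3 and KRT8 had lower ones (326.3 against 1247 CPM, and 251.4 against 304.2 CPM). On overexpression edgeR called 1 of the 10 markers lower and 0 higher, beside 2.6% and 1.51% of all genes. It was KLK3 (0.701 of control, edgeR adjusted p = 0.00128). The controls already differed: 6 markers were higher and 3 lower in the shRNA control than in the vector control, beside 21.7% and 21.3% of all genes. Summed levels of 14 markers of other cells were 16.33 to 20.72 CPM in the vector control, with 17.4 to 19.89 after overexpression. They were 30.16 to 31.38 in the shRNA control, and after depletion 23.81 to 28.19. PECAM1 and CDH2 had 0 counts in all 12 libraries. The part of either marker set in the member values was not tested. Vector control replicate 3 differed most from its group mates, with an SD of its log2 differences from them of 0.297 against 0.193 and 0.197 for the other two.

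MYC was the most abundant network transcript per length of exon in all 4 groups, and MYCN was at or near 0. Levels between genes are compared as CPM per kilobase of exon (GENCODE 29). On this scale MYC stood at 101.9 ± 8.28 in the vector control, 97.87 ± 3.58 after overexpression, 32.65 ± 1.75 in the shRNA control and 52.44 ± 1.6 after depletion (SD, n = 3 each). MXD4 came next at 13.86 to 18.82 (group means), followed by MGA at 11.07 to 12.82. MXI1 (8.731 to 11.4) and MAX (9.237 to 10.22) followed, MXI1 ahead in 3 groups and MAX in the shRNA control, and their libraries overlapped in the vector and shRNA controls. MAX, the partner of MYC, was thus measured far below MYC as RNA in each group. MXD3, MXD1, MNT and MYCL all lay between 1.287 and 2.68. Within this low set, libraries of MXD1 and MNT overlapped in the vector control and after overexpression, those of MYCL and MNT in the shRNA control, and those of MXD1, MYCL and MNT with one another after depletion.

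**Figure D1:**
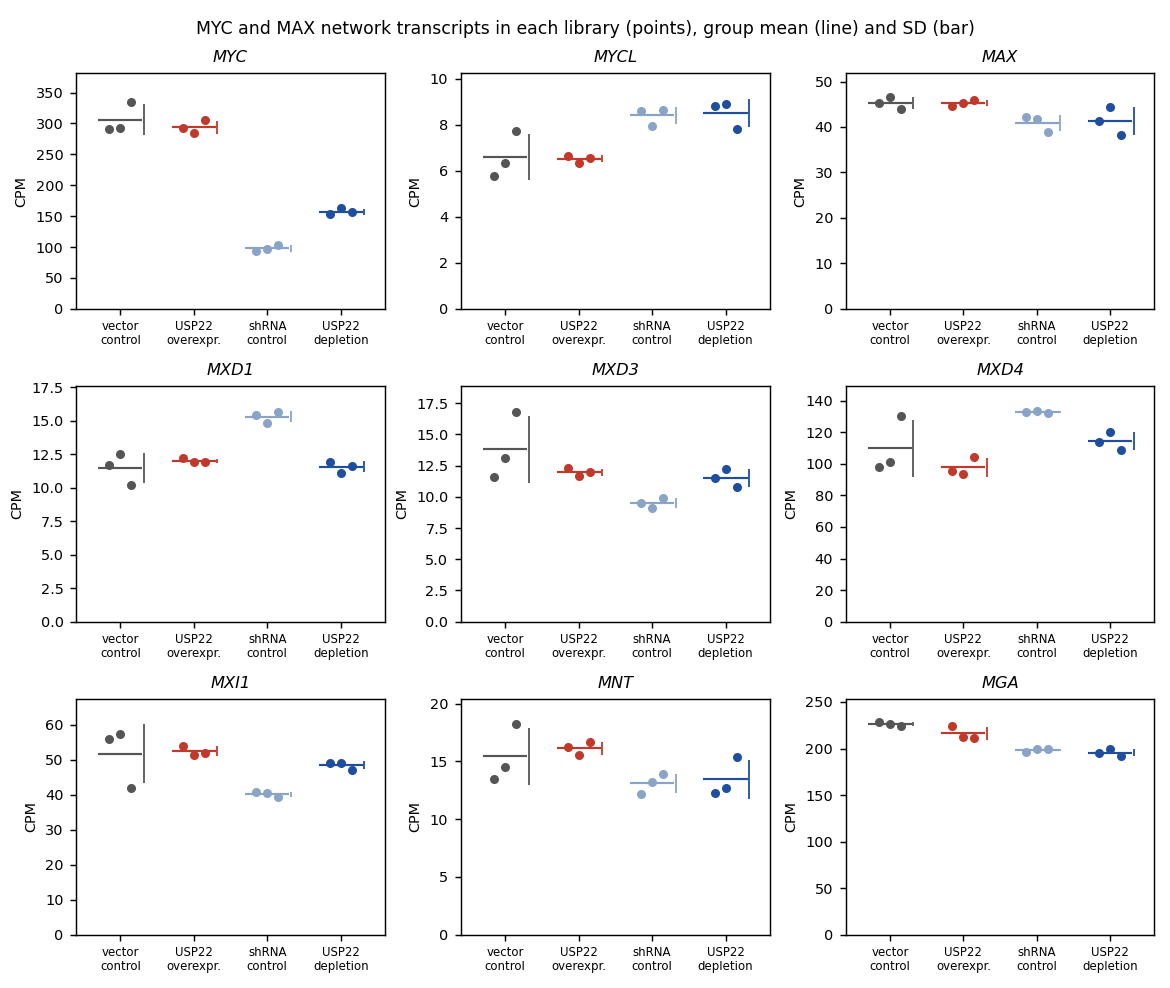
Level of the 9 tested network transcripts in CPM (linear axes from 0, one panel per gene, scales differ), with 1 point per library, the group mean as a line and the SD as a bar, n = 3 per group. MYC falls into 3 levels, highest in both vector groups (283.8 to 334.5 CPM), lowest in the shRNA control (93.08 to 103.5) and between them after depletion (153.2 to 162.6), while the group means of MAX lie between 40.92 and 45.28.

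MYC, the activator that the network is named for, rose on USP22 depletion, did not pass the test on overexpression, and was far lower in both shRNA groups than in the vector control. In the vector control its libraries had 290.4, 292.7 and 334.5 CPM, and after overexpression 292.2, 283.8 and 305.1 CPM. In the shRNA control they had 93.08, 97.34 and 103.5 CPM, and after depletion 153.2, 162.6 and 156.4 CPM. All depletion libraries lay above all shRNA control libraries, and the vector and overexpression libraries overlapped. The log2 fold change on depletion was 0.68 (SE 0.07), a 1.61-fold rise with an edgeR adjusted p of 1.78e-06, and it was 0.67 to 0.74 and past the threshold in all 20 alternative settings tried. On overexpression it was -0.06 (95% interval -0.20 to 0.08, edgeR adjusted p = 0.678). The difference between those effects passed the test itself, at 0.74 on the log2 scale (SE 0.09, edgeR adjusted p = 8.54e-05).

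The rise of MYC on depletion started from a low control. Set against the vector control, MYC was at 0.32 of its level in the shRNA control (log2 difference -1.64, SE 0.07, edgeR adjusted p = 3.34e-11) and at 0.515 after depletion (log2 difference -0.96, edgeR adjusted p = 1.73e-08). These comparisons share control libraries with the others, and line, shRNA and doxycycline all differ between the shRNA groups and the vector control, so their parts cannot be told apart. Summed levels of 10 cell cycle genes followed the same order of groups: 1827 to 1878 CPM in the vector control, 1725 to 1741 after overexpression, 852.5 to 917.2 in the shRNA control and 1270 to 1383 after depletion. The part of proliferation in the MYC values was not tested, and in bulk RNA fewer cells of a type and less RNA per cell cannot be told apart.

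MYCL, the family member first found in lung cancer, was low and higher in both shRNA groups than in the vector control. It had 5.767, 6.325 and 7.724 CPM in the vector control and 6.64, 6.351 and 6.56 CPM after overexpression. In the shRNA control it had 8.612, 7.963 and 8.64 CPM, and after depletion 8.824, 8.912 and 7.813 CPM. Both shRNA groups lay above all vector control libraries, and they overlapped each other. Against the vector control the log2 differences were 0.35 (SE 0.10, edgeR adjusted p = 0.0103) in the shRNA control and 0.37 (SE 0.10, edgeR adjusted p = 0.00951) after depletion. Both calls ended without vector control replicate 1 (edgeR adjusted p = 0.0616 and 0.0526). Neither raising nor lowering USP22 passed the test, with 95% intervals of -0.24 to 0.20 and -0.19 to 0.23. MYCN, the family member of neuroblastoma and neuroendocrine prostate cancer, had 0 counts in 10 of 12 libraries and 2 counts in depletion replicates 1 and 2. Such a 0 allows up to 0.0423 CPM (3 counts of the library; counting error only), and no fold is given.

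MAX, the partner that the network shares, did not pass the test in any of the 5 comparisons. It had 45.17, 46.69 and 43.98 CPM in the vector control, 44.6, 45.27 and 45.86 after overexpression, 42.22, 41.7 and 38.85 in the shRNA control, and 41.41, 44.39 and 38.18 after depletion. The log2 fold change was -0.001 on overexpression (95% interval -0.14 to 0.14) and 0.01 on depletion (95% interval -0.12 to 0.15). The shRNA control libraries lay below all vector control libraries, a log2 difference of -0.15 that missed the threshold (edgeR adjusted p = 0.0818), and passed it without vector control replicate 3 (-0.17, edgeR adjusted p = 0.0174).

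The 4 MXD antagonists did not move as a group on depletion: MXD1 fell and MXI1 rose, while MXD3 and MXD4 missed the threshold. MXD1, an antagonist best known from differentiating cells, had 15.43, 14.83 and 15.61 CPM in the shRNA control and 11.91, 11.11 and 11.64 CPM after depletion. All depletion libraries were lower, at 0.755 of the control (log2 fold change -0.40, SE 0.08, edgeR adjusted p = 0.00131), and the call held in all 20 alternatives. In the vector control MXD1 had 11.72, 12.47 and 10.23 CPM and after overexpression 12.18, 11.92 and 11.93 CPM, so the depletion libraries lay within the range of the vector control and the shRNA control stood above it (log2 difference 0.41, SE 0.08, edgeR adjusted p = 0.000382). The effects of depletion and overexpression on MXD1 differed by -0.47 on the log2 scale (SE 0.11, edgeR adjusted p = 0.0109).

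MXI1, an antagonist proposed as a tumour suppressor of the prostate, had 40.74, 40.54 and 39.4 CPM in the shRNA control and 49.1, 49.06 and 47.11 CPM after depletion. All depletion libraries were higher, by 1.2-fold (log2 fold change 0.27, SE 0.09, edgeR adjusted p = 0.0455). This call was close to the threshold and ended in 9 of 20 alternatives, which were those that left out any overexpression, shRNA control or depletion replicate (edgeR adjusted p = 0.0623 to 0.126). In the vector control MXI1 had 55.9, 57.43 and 42.03 CPM, replicate 3 being the low one, and after overexpression 54.04, 51.42 and 52.07 CPM. The shRNA control lay below all of these, with a log2 difference from the vector control of -0.37 (SE 0.09, edgeR adjusted p = 0.00338).

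MXD4, by its level the main MXD transcript of these cells, had 132.7, 133.6 and 132.1 CPM in the shRNA control and 114.1, 120.3 and 109 CPM after depletion. The groups did not overlap, but the log2 fold change of -0.21 (SE 0.09) missed the threshold in the fit of all 12 libraries (edgeR adjusted p = 0.107). The call was made when the fit held the shRNA groups alone (edgeR adjusted p = 0.000758), or all libraries but vector control replicate 3 (0.000872), a library that adds only to the estimate of spread here. In the vector control MXD4 had 98.17, 100.9 and 130.4 CPM, again with replicate 3 apart, and after overexpression 95.22, 93.71 and 104.6 CPM. The higher level of the shRNA control against the vector control (log2 difference 0.27, SE 0.09, edgeR adjusted p = 0.0195) lost its call without vector control replicate 1 or 2 (edgeR adjusted p = 0.1 and 0.0879) and when the fit held those groups alone (0.0531).

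MXD3, an antagonist found mainly in dividing cells, had 9.546, 9.07 and 9.911 CPM in the shRNA control and 11.5, 12.24 and 10.75 CPM after depletion, again without overlap. Its log2 fold change of 0.27 (SE 0.11) missed the threshold (edgeR adjusted p = 0.0916) and passed in 4 of 20 alternatives, among them the shRNA groups fitted alone (edgeR adjusted p = 0.00458) and all libraries but vector control replicate 3 (0.00296). In the vector control it had 11.58, 13.08 and 16.77 CPM and after overexpression 12.27, 11.68 and 11.96 CPM. The shRNA control was at 0.689 of the vector control (log2 difference -0.54, SE 0.11, edgeR adjusted p = 0.000731). MXD3 shares 22.5% of its exon bases with PRELID1 on the opposite strand and 18% with RAB24 on the same strand in GENCODE 29, and the strand setting of the counting is not given, so its reads are uncertain.

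MNT, the antagonist present in both resting and dividing cells, did not pass the test in any comparison of all 12 libraries without a replicate block. Between the shRNA and vector controls its log2 difference of -0.24 (edgeR adjusted p = 0.0915) passed without vector control replicate 1 (-0.33, edgeR adjusted p = 0.028) and with the block (0.032). Its libraries had 13.5 to 18.22 CPM in the vector control, 15.55 to 16.63 after overexpression, 12.18 to 13.86 in the shRNA control and 12.29 to 15.4 after depletion. The log2 fold change was 0.07 on overexpression (95% interval -0.16 to 0.29) and 0.04 on depletion (95% interval -0.19 to 0.27), and an antisense transcript covers 12.2% of its exon bases. MGA, the scaffold of PRC1.6, had 224.2 to 228.3 CPM in the vector control, 211.8 to 224.5 after overexpression, 196.6 to 199.2 in the shRNA control and 191.6 to 199.7 after depletion. It was lower in both shRNA groups than in the vector control, at 0.876 and 0.864 of its level (edgeR adjusted p = 0.00508 and 0.00326), and the call after depletion ended when low counts were not filtered (0.068) or the fit held those groups alone (0.0888). On depletion the log2 fold change of MGA was -0.02 (95% interval -0.13 to 0.09) and on overexpression -0.07 (95% interval -0.17 to 0.04).

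Counted over the 9 tested members, edgeR called 0 on overexpression, where it called 4.11% of all 26076 tested genes (1.51% higher, 2.6% lower). No member passed at an unadjusted p under 0.05 there (0 of 9, share of all genes not counted). DESeq2 and limma voom also called 0, and no member's groups were free of overlap, against 22.4% of all genes. On depletion 3 of 9 were called (MYC and MXI1 higher, MXD1 lower), against 19.8% of all genes (9.4% higher, 10.4% lower), and the groups of 5 did not overlap, against 41.8%. Between the shRNA and vector controls 7 of 9 were called (MYCL, MXD1 and MXD4 higher, MYC, MXD3, MXI1 and MGA lower), against 43% of all genes (21.7% higher, 21.3% lower), and the groups of 8 did not overlap, against 49.8%. Between depletion and the vector control 3 were called (MYCL higher, MYC and MGA lower), against 34.8% (16.2% higher, 18.6% lower), and the groups of 3 did not overlap, against 42.9%. The effects of depletion and overexpression differed for 2 members, MYC and MXD1, against 10.9% of all genes (5.98% above 0, 4.91% below), and MXD3 missed the threshold (log2 difference 0.48, edgeR adjusted p = 0.0566). That MXD3 difference passed in 7 of 19 alternatives, among them DESeq2 (adjusted p = 0.0189), RLE scaling (0.0485), no filter (0.00666) and the strict filter (0.0445). Without vector control replicate 3 the counts were 5 on depletion, 8 between the controls, 6 for depletion against the vector control and 4 for the difference. Calls over all genes also rose in that setting. In the same order they were 8359, 12344, 10422 and 5320, in place of 5172, 11211, 9081 and 2840.

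**Figure D2:**
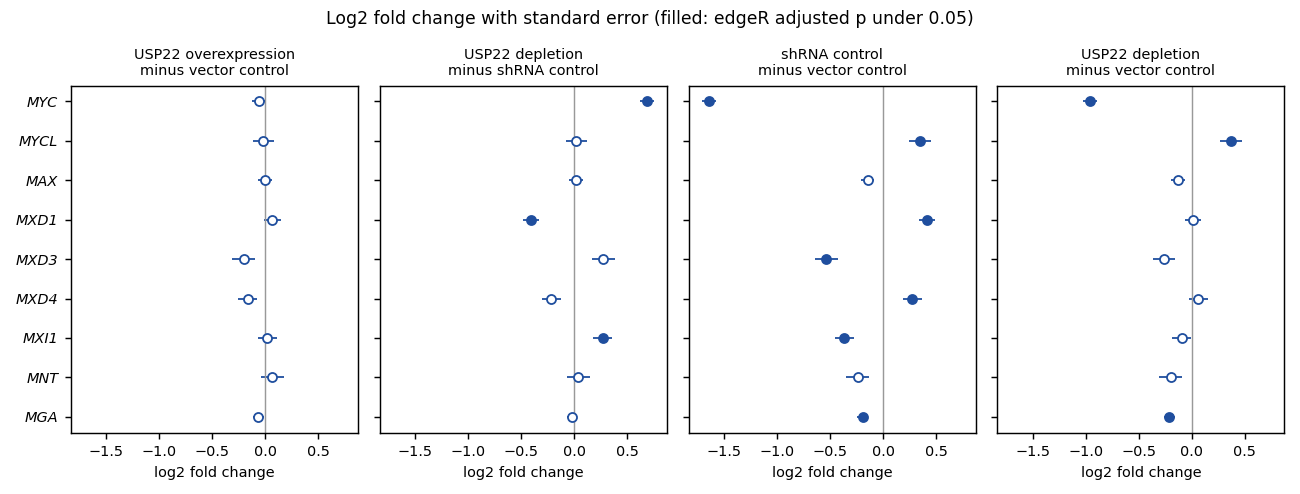
Log2 fold change of the 9 tested members with its standard error in 4 comparisons, filled where the edgeR adjusted p is under 0.05. MYC is the farthest from 0 in 3 of the panels, at 0.68 on depletion, -1.64 for the shRNA against the vector control and -0.96 for depletion against the vector control, and no point is filled on overexpression.

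The E-box core bound by MYC and MAX dimers, CACGTG, which reads the same on both strands, stands in the promoters of MXD4 and MNT, and these are shown with that of MXD1, the antagonist that fell. RefSeq promoters of build GRCh38.p14, from 250 bases before to 50 after the gene start, were in the table for 9 members (14 promoters, all members but MYC), and the capitals mark CACGTG in the bases before the start.
MXD4 (chr4:2262110-2262359, minus strand): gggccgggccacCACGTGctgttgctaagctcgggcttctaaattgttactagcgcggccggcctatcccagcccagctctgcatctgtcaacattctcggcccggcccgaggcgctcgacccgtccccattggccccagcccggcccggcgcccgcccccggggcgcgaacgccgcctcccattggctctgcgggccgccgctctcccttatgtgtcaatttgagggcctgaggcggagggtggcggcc
MNT (chr17:2401061-2401310, minus strand): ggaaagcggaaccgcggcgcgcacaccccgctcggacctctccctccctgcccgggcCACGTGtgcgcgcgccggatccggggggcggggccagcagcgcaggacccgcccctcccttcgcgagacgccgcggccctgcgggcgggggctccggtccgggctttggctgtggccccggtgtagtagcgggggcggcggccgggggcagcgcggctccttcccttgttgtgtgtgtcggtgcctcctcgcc
MXD1 (chr2:69914859-69915108, plus strand): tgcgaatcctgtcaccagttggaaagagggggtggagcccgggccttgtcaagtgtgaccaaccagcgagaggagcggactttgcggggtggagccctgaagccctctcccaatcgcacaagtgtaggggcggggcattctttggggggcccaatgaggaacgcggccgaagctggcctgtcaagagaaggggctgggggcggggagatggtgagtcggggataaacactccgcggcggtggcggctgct

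The match lies 238 bases before the start in MXD4 and 193 bases before it in MNT. CACGTG was in 7.26% of all 35116 promoters of the same length, and in 2 of the 14 member promoters (14.3%). The related sequence CACGCG, searched on both strands, was in promoters of MXD3, MXI1 and MGA (3 of 14 promoters, against 11.4% of all). No CACGTG or CACGCG was found in the promoter window of MXD1, MYCL, MYCN or MAX, which says only that these letters are not in those windows. Neither of the members with CACGTG passed the test on depletion or overexpression.

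The level of MYC proteins' transcripts against those of their antagonists differed most between the vector and shRNA groups. Summed per kilobase, MYC, MYCN and MYCL stood at 103.2 ± 8.48 in the vector control, 99.16 ± 3.62 after overexpression, 34.31 ± 1.76 in the shRNA control and 54.13 ± 1.64 after depletion. The 6 antagonists (MXD1, MXD3, MXD4, MXI1, MNT and MGA) summed to 45.88 ± 1.32, 43.57 ± 1.02, 44.53 ± 0.0854 and 43.4 ± 1.19 (CPM per kilobase, SD, n = 3 each). The antagonist sum thus varied little over the 4 groups, while its members moved in different directions. From the shRNA control to depletion MXD4 went from 18.82 to 16.22 and MXD1 from 2.407 to 1.819 CPM per kilobase. MXI1 went from 8.731 to 10.51 and MXD3 from 1.845 to 2.23, with MXD4 and MXD3 short of the threshold. The ratio of the 2 sums was 2.25 in the vector control and 2.28 after overexpression, with log2 values of 1.11 to 1.258 and 1.162 to 1.219 that overlapped. Its log2 values were -0.442 to -0.298 in the shRNA control (ratio 0.77) and 0.283 to 0.346 after depletion, without overlap. The mean log2 ratio was 0.70 higher on depletion (0.664 to 0.736 with any 1 library left out) and 0.02 higher on overexpression (-0.01 to 0.064). The level of the ratio, unlike its differences between groups, rests on the division by exon length: without it the log2 ratio was below 0 in all 12 libraries (-2.001 to -0.368), with differences of 0.694 on depletion and 0.021 on overexpression. Transcript levels say nothing of protein, and MYC protein is short-lived, so the ratio is a description of RNA.

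**Figure D3:**
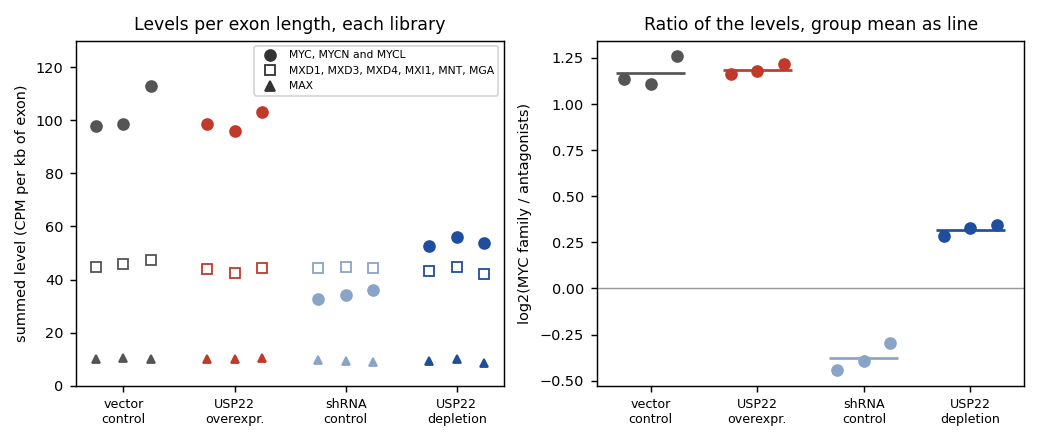
Left, summed transcript levels in CPM per kilobase of exon in each library for the MYC proteins (circles), their 6 antagonists (squares) and MAX (triangles). Right, log2 of the MYC sum over the antagonist sum with the group mean as a line. The antagonist sums stay between 42.21 and 47.25 in all 12 libraries, while the log2 ratio of levels per exon length is above 0 in every group except the shRNA control (without the division by length it is below 0 in all 12 libraries).

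Most genes that MYC is known to activate rose on depletion and were lower in both shRNA groups than in the vector control. The list held 76 genes of ribosome production, nucleotide synthesis, metabolism and growth, of which 75 were tested, and it was chosen with earlier results of these data known. On depletion 51 were higher and 1 was lower, with a median log2 fold change of 0.30 against 0 for all tested genes, of which 9.4% were higher and 10.4% lower. Leaving out 6 genes (PLK1, PLK4, MCM4, MCM5, CDC25A and UNG, an alternative chosen after seeing the data) left 45 higher and 1 lower of 69. The part of proliferation in the changes of this list was not tested. On overexpression 1 was higher and 4 were lower (median -0.09, against -0.008 for all genes), beside 4.11% of all genes called. In that comparison DESeq2 called 12 of the list (1781 genes in all) and limma voom 7 (967 in all). At an unadjusted p under 0.05 edgeR passed 26 (share of all genes not counted). The groups of 33 did not overlap, against 22.4% of all genes. Between the shRNA and vector controls 2 were higher and 70 lower (median -0.75), where 21.7% of all genes were higher and 21.3% lower. Depletion against the vector control gave 1 higher and 67 lower (median -0.47), beside 16.2% and 18.6% of all genes. The difference between the effects of depletion and overexpression was above 0 for 43 and below 0 for 1, beside 5.98% and 4.91% of all genes. The comparisons share control libraries, so these counts are not independent of each other.

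HSPD1, the mitochondrial chaperonin, had 827.8 to 874.4 CPM in the shRNA control and 1061 to 1190 CPM after depletion, against 1694 to 1750 CPM in the vector control. It rose 1.33-fold on depletion (log2 fold change 0.41, SE 0.05, edgeR adjusted p = 3.7e-05). POLR1B, a subunit of RNA polymerase I, rose 1.36-fold (edgeR adjusted p = 9.54e-06) and MCM4, of the replicative helicase, 1.52-fold (edgeR adjusted p = 6.21e-06). The gene that fell was DUSP2, a phosphatase of MAP kinases, from 55.91 to 58.05 CPM in the shRNA control to 19.4 to 22.42 CPM after depletion (log2 fold change -1.48, SE 0.11, edgeR adjusted p = 1.5e-07), and its vector control libraries had 22.34 to 32.71 CPM. On overexpression the rise was in TERT, the catalytic subunit of telomerase, from 3.434 to 4.955 CPM (1.45-fold, edgeR adjusted p = 0.0275). The falls were in PES1, of ribosome production (0.724 of control), the helicase subunit MCM5 (0.772), the nucleoside transporter SLC29A2 (0.786) and PA2G4 (0.845), named after their values were seen, with edgeR adjusted p of 0.00911, 0.0224, 0.0391 and 0.0463. These 5 calls depended on single libraries: the list had 0 calls without overexpression replicate 2, 1 without replicate 1 and 2 without replicate 3 of that group, 3 without any 1 shRNA control or depletion library, 11 lower without vector control replicate 1, 9 lower without vector control replicate 2, and 3 higher and 7 lower without vector control replicate 3. On depletion 43 to 65 were called with any 1 library left out, the most (62 higher, 3 lower) without vector control replicate 3.

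**Figure D4:**
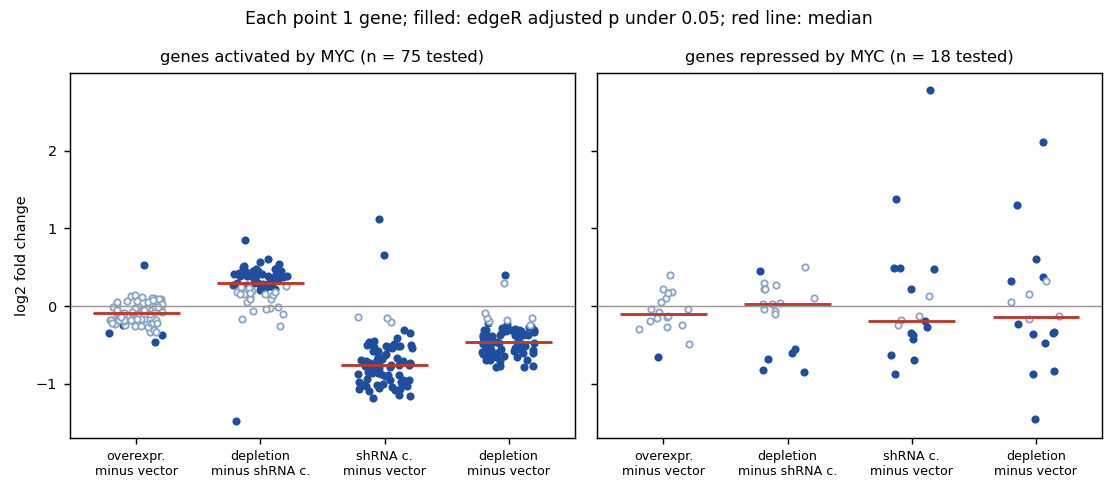
Log2 fold changes of the tested genes that MYC is known to activate (left, 75 genes) or repress (right, 18 genes) in 4 comparisons, each point 1 gene, filled where the edgeR adjusted p is under 0.05, with the median as a red line. The activated genes have medians of -0.09, 0.30, -0.75 and -0.47 from left to right, while the repressed genes spread to both sides of 0.

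Activated genes with and without an E-box in the promoter had nearly the same median change on depletion. RefSeq promoters were in the table for 64 of the 75 tested genes, and CACGTG was in 36.9% of their 84 promoters, against 7.26% of all promoters. Of 31 genes with CACGTG 21 were higher and 1 lower on depletion (median log2 fold change 0.30), and of 33 genes without it 24 were higher and 0 lower (median 0.30). The following windows of 30 bases show the match, in capitals, for HSPD1 and DUSP2, which moved in opposite directions, and for ODC1 (ornithine decarboxylase) and LDHA (lactate dehydrogenase), well-known MYC targets picked with their values known.
HSPD1 (chr2:197500345-197500374, minus strand): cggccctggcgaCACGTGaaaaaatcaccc
DUSP2 (chr2:96145536-96145565, minus strand): cagactgcgcccCACGTGaggggcgggggc
ODC1 (chr2:10448024-10448053, minus strand): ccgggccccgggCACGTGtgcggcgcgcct
LDHA (chr11:18394366-18394395, plus strand): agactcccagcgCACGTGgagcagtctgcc

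The match lies 88 bases before the start in HSPD1, 113 in DUSP2, 29 in ODC1 and 185 in LDHA, which has a further match 87 bases before its start. ODC1 rose 1.31-fold and LDHA 1.33-fold on depletion (edgeR adjusted p = 0.000396 and 6.26e-05), and neither passed on overexpression (0.17 and 0.979). A match of letters is no evidence of binding.

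Genes that MYC is known to repress showed no common direction on depletion: of 18 tested 5 were lower and 1 was higher, with a median of 0.03, where 9.4% of all genes were higher and 10.4% lower. DESeq2 called 9 of the list and limma voom 7. NDRG1, a stress-responsive gene that is also induced by androgen, was the gene of this list that passed in both comparisons. It had 127.9 to 132.5 CPM in the shRNA control and 67.58 to 76.11 after depletion (0.556 of control, edgeR adjusted p = 1.03e-06). Vector control libraries had 85.64 to 106.6 CPM and overexpression libraries 57.86 to 60.98 CPM (0.637 of control, edgeR adjusted p = 7.64e-05). The cell cycle inhibitor CDKN1A (p21) fell to 0.563 of control on depletion (edgeR adjusted p = 2.76e-06), and its shRNA control level was at 0.648 of the vector control (edgeR adjusted p = 1.17e-05). CDKN1C (0.626), DUSP1 (0.68) and KLF6 (0.659) were the other falls, and CDKN2C, an inhibitor of CDK4 and CDK6, was the rise (1.36-fold, edgeR adjusted p = 0.000904). Without vector control replicate 3 the count was 6 higher and 5 lower on depletion, and 1 higher and 2 lower on overexpression in place of 1 lower (NDRG1).

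Of 14 cofactors that MYC recruits, 2 rose on depletion and 0 fell: RUVBL1, an ATPase of chromatin remodelling complexes (1.33-fold, edgeR adjusted p = 0.000355), and ACTL6A, an actin-related subunit of such complexes (log2 fold change 0.32, 0.000856). Of 11 SIN3 corepressor genes, through which the MXD proteins repress, 2 rose and 0 fell: RBBP7 (log2 fold change 0.32, 0.000582) and the deacetylase HDAC2 (1.21-fold, 0.00213). Neither share of genes called exceeded the 19.8% of all genes called on depletion (9.4% higher, 10.4% lower), so these counts set neither list apart. By DESeq2 3 genes were called in each list, by limma voom 2, and without vector control replicate 3 edgeR called 4 in each (3 higher, 1 lower). On overexpression edgeR called 0 in both lists, with 6 cofactor and 2 SIN3 genes at an unadjusted p under 0.05 (share of all genes not counted). DESeq2 called 1 cofactor there, limma voom 0, and edgeR without vector control replicate 3 called 1 cofactor. In that comparison the groups of 6 cofactor and 5 SIN3 genes did not overlap, against 22.4% of all genes. List medians on depletion were -0.02 and -0.01, against 0 for all tested genes.

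Genes of MYC protein turnover had 5 rises and 1 fall among 16 on depletion, where 9.4% of all genes were higher and 10.4% lower. The rises included AURKA, a kinase that shields MYCN from degradation (1.37-fold, edgeR adjusted p = 0.000104), the ubiquitin ligase subunit SKP2 (1.41-fold, 0.000178), the deubiquitinase USP37 (1.31-fold, 0.000499) and CIP2A, an inhibitor of the phosphatase that marks MYC for removal (1.53-fold, 0.000533). FBXO32, another ligase subunit, also rose (1.35-fold), and FBXW7, the ligase subunit best known for degrading MYC, fell to 0.808 of control (edgeR adjusted p = 0.00218). AURKA and SKP2 also vary with the cell cycle, whose 10 genes had 9 rises and 0 falls on depletion (median 0.55, 9 also by DESeq2 and by limma voom). The part of the cell cycle in the rises of the turnover genes was not tested. On overexpression edgeR called 0 of 16, with 5 passing 0.05 unadjusted (share of all genes not counted). There limma voom and DESeq2 called 0, and edgeR without vector control replicate 3 called 1. In that comparison the groups of 8 of the 16 did not overlap, against 22.4% of all genes.

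Of 12 PRC1.6 partners of MGA, 5 rose and 1 fell on depletion (median 0.09), beside 9.4% and 10.4% of all genes. TFDP1, a dimer partner of E2F factors, rose 1.22-fold (edgeR adjusted p = 0.00164) and the heterochromatin protein gene CBX3 1.31-fold (0.00428). RING1, a ubiquitin ligase of Polycomb complexes, fell from 31.55 to 33.55 CPM to between 23.41 and 24.04 CPM (0.721 of control, edgeR adjusted p = 0.000517). On overexpression its relative RNF2 rose 1.28-fold (edgeR adjusted p = 0.0381) and L3MBTL2 fell to 0.751 of control (edgeR adjusted p = 0.00939), beside 4.11% of all genes called. The count on overexpression was 0 without overexpression replicate 2 and 1 without overexpression replicate 1 or 3, shRNA control replicate 1 or 2, or any 1 depletion library. HDAC1 and HDAC2 stand in both the SIN3 and the PRC1.6 list. Of the other PRC1.6 partners, WDR5 is also in the cofactor list and CBX3 in the list of activated genes.

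Among 11 regulators of MYC transcription 3 rose and 1 fell on depletion, beside 9.4% and 10.4% of all genes. NCL (nucleolin, also in the list of activated genes) rose 1.31-fold (edgeR adjusted p = 0.00032), HNRNPK by 0.19 (0.0211) and FUBP1 by 0.18 (0.0436) on the log2 scale, all proteins that bind DNA upstream of MYC. LEF1, a factor of Wnt signalling, fell from 3.733 to 2.354 CPM (edgeR adjusted p = 3e-04). This count depended on single libraries: it was 2 without shRNA control replicate 1 or 3 or depletion replicate 1 or 2, and 6 without vector control replicate 3. On overexpression edgeR called 0, with 3 at an unadjusted p under 0.05 (share of all genes not counted). There 1 each was called by DESeq2, by limma voom and by edgeR without vector control replicate 3. In that comparison the groups of 3 regulators did not overlap, against 22.4% of all genes. Of the noncoding transcripts beside MYC, CASC11 had 0.9993 to 1.057 CPM in the vector control, 0.7498 to 1.117 after overexpression, 0.2694 to 0.4314 in the shRNA control and 0.638 to 0.6843 after depletion, a 1.93-fold rise on depletion (edgeR adjusted p = 0.00506) in the same order of groups as MYC. PVT1 was lower in the shRNA control than in the vector control (0.537, edgeR adjusted p = 7.18e-08), and on depletion its log2 fold change of 0.21 was near the threshold (edgeR adjusted p = 0.0559), which it passed by DESeq2, with RLE scaling, and without vector control replicate 3, shRNA control replicate 3 or depletion replicate 2. In the MLX branch, a parallel network that senses glucose, 1 of 4 tested genes fell on depletion: MLXIP, from 76.46 to 83.85 CPM to 53.52 to 65.91 CPM (0.733 of control, edgeR adjusted p = 0.000995).

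The genes whose profile over the 12 libraries was nearest to that of MYC were TSC22D3, APLN and NUP93. Nearness is the root mean square difference of log2 CPM after each gene's mean was subtracted, over the 10934 named genes that averaged 5 CPM or more. Groups of libraries, not single ones, set most of the MYC profile. TSC22D3, a leucine zipper protein induced by glucocorticoid, differed from MYC by 0.079 (MYC itself had an SD of 0.681 over the libraries). Its level was 109.9 ± 15.6 CPM in the vector control, 105 ± 2.45 after overexpression, 31.49 ± 0.986 in the shRNA control and 53.06 ± 4.23 after depletion (SD, n = 3 each). APLN, the peptide hormone apelin, differed by 0.106 and the nucleoporin gene NUP93 by 0.12. NUP93, unlike MYC, fell on overexpression, to 0.767 of control (edgeR adjusted p = 0.00193). For MXD1 the nearest were ARID2, COBLL1 and BRAF (0.037 to 0.054, MXD1 SD 0.176), and for MXI1 TRA2B, ADO and CNIH1 (0.028 to 0.044, MXI1 SD 0.182). Within the vector control MXI1 ran from 42.03 to 57.43 CPM, TRA2B from 196.6 to 261.2, ADO from 43.76 to 60.51 and CNIH1 from 63.47 to 89.06. Spread within that group thus also entered the nearness to MXI1. These are descriptions without a test.

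**Figure D5:**
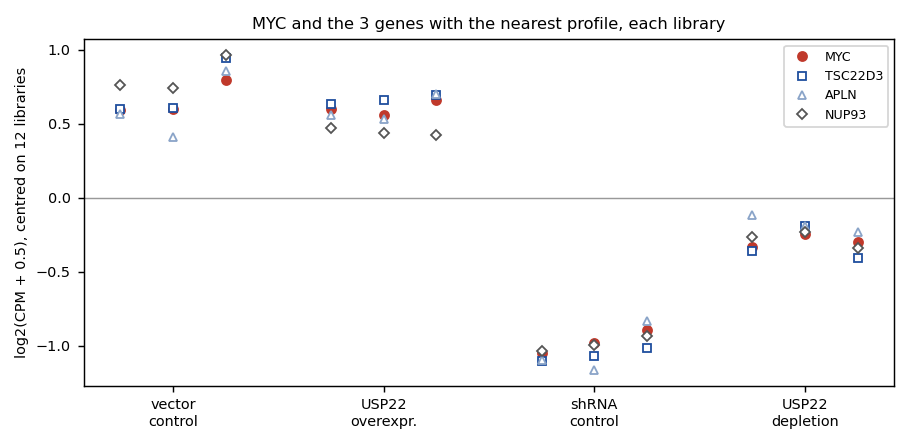
Profiles of MYC (filled circles) and the 3 genes nearest to it, as log2(CPM + 0.5) minus each gene's mean over 12 libraries, with libraries in order of group and replicate. All 4 genes are above 0 in the vector groups and below 0 in the shRNA groups, lowest in the shRNA control.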

How the data were processed

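RNA of 12 libraries was sequenced, 3 per group. The authors deposited a table of raw read counts per Ensembl gene ID. The submitters' processing notes name hg19, DESeq2 1.14.1, featureCounts 1.5.0-p3 and STAR 2.5.2a. Per the labels' protocols, libraries came from a kit for total RNA that keeps the strand. The sources used here do not give the annotation release or strand setting, so reads of overlapping genes are uncertain.

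Groups and replicate numbers came from the labels, and columns were matched to samples by name. Symbols were found for 39699 of 63677 IDs. Counts were fitted in R 4.3.3 with edgeR 4.0.16: filterByExpr by group (26076 genes), TMM, glmQLFit on all 4 groups (8 residual degrees of freedom), glmQLFTest, and Benjamini-Hochberg adjustment over all tested genes with a threshold of 0.05. Intervals are 95% intervals of the log2 fold change. On simulated data with 50 changed genes per size among 26076, the procedure recovered 20%, 28%, 74% and 90% of 1.25-, 1.5-, 2- and 4-fold changes for overexpression and 4%, 46%, 70% and 88% for depletion, with 4.5% and 4.59% false calls. The simulation held far fewer changed genes than the data, where 4.11% of genes were called on overexpression and 19.8% on depletion. The adjusted p depends on that number, so these recovery rates need not hold for the data. No pair of replicates agreed within sampling noise (chi-square over degrees of freedom of 7.2 or more). Exon lengths are from GENCODE 29, of another build than the files.

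The members and lists were chosen with earlier results of these data known. All members were named, from each other list up to 4 genes with the smallest edgeR adjusted p on depletion or overexpression, and the 3 nearest profiles of MYC and of members called on either. Other genes were named after their values were seen. In some lists members were untested: TXNIP had 0 counts under its matched ID, and CCAT1 was not matched. Alternatives were DESeq2 1.42.0, limma voom (limma 3.58.1), RLE scaling, no filter, a strict filter (1 CPM or more in 3 libraries or more), a fit of the compared groups alone, a replicate block, removal of the 20 genes with most counts, and removal of each library.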

Additional observations from a re-analysis of the deposited data

How the results depend on the processing

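MYC and MXD1 kept their direction and call on depletion in all 20 alternatives. Over all genes, overexpression gave 1072 calls (393 higher, 679 lower), but 2062 (939 and 1123) when low counts were not filtered, 1781 (678 and 1103) by DESeq2 and 327 (102 and 225) in a fit of the compared groups alone. Depletion gave 5172 (2450 and 2722), but 8115 (4037 and 4078) in a fit of the compared groups alone, where 5 members (3 higher, 2 lower) were called in place of 3. More genes were higher than lower on depletion under RLE scaling (2606 and 2571), no filter (3106 and 2603), the strict filter (2689 and 2511) and DESeq2 (2901 and 2801). For depletion against the vector control (4228 and 4853) this also held with no filter (5297 and 4268), the strict filter (3972 and 3948) and the compared groups alone (3373 and 3162). Between the controls (5665 and 5546) more were lower under RLE scaling (5525 and 5680) and DESeq2 (5637 and 5778). With any 1 library left out the calls ranged from 501 (without overexpression replicate 2) to 1842 (without vector control replicate 3) on overexpression, 3523 to 8359 on depletion, 9514 to 12344 between the controls, 7328 to 10422 for depletion against the vector control and 1909 to 5320 for the difference of effects. In the same fits, members called ranged from 0 to 0, 2 to 5, 6 to 8, 3 to 6 and 2 to 4. For gene calls the lowest values on depletion and for the difference were without shRNA control replicate 1, and the highest in all 5 comparisons without vector control replicate 3.

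Same-numbered libraries did not deviate together in every pair (correlations of -0.05, 0.19 and 0.22 for the vector groups, -0.02, 0.12 and 0.12 for the shRNA groups), and replicate 1 correlated best with replicate 2 in both. With the replicate block, overexpression gave 1098 calls and depletion 5272, member calls on both were as before (0 and 3), and MNT was called between the controls (-0.23, edgeR adjusted p = 0.032). The cause of these changes was not tested. A depth of 77607469 reads or more left MYCN as the member that could not be tested.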
